A study of Arabidopsis thaliana with 24 samples.

Results

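*SHL1* (SHORT LIFE, AT4G39100) and *EBS* (EARLY BOLTING IN SHORT DAYS, AT4G22140) encode a homologous pair of chromatin readers, and their transcript levels in *Arabidopsis* shoots are described here across genotype, nitrate supply and day. The members are 2 of the 28775 genes in the expression table. *SHL1* was selected on its CPM in the *nrt1.13* mutant, chosen by being below the wild type in all conditions, so its genotype differences are given as a description without a test, and *EBS* was taken as its homologue. Both were among the 15108 genes that reached 2 CPM (read counts scaled to the library by the authors) in all 24 libraries and were tested.

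The 8 groups combined the wild type Col-0 or *nrt1.13*, a supply of 0.2 or 2 mM KNO3, and harvest at 16 or 25 days, with 3 libraries per group. NRT1.13 is a membrane protein of the NRT1 nitrate transporter family, and *nrt1.13* is a single T-DNA insertion line with the insertion in the fourth exon of the gene. Whole shoots of hydroponic plants were used, the 0.2 mM solution was topped up with KCl, and the labels count the days from germination in one field and from sowing in another. In whole shoots, fewer cells of a type and less RNA per cell cannot be told apart.

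Each of these proteins carries a bromo-adjacent homology (BAH) domain, which binds the repressive histone mark H3K27me3, and a PHD finger, which binds the activating mark H3K4me3. With EMF1 they act in Polycomb silencing, in which chromatin marked by H3K27me3 is kept inactive. Loss of either gene is known to cause early flowering, with *FT* described as a target of EBS and *SOC1* as a target of SHL1.

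Both genes lie on the minus strand of chromosome 4 (TAIR10.1 annotation). *SHL1* spans 18217629 to 18220324 with 5 exons and 2 annotated transcripts, and *EBS* spans 11727706 to 11730509 with 5 exons and 3 annotated transcripts. The coding sequences of 687 and 705 bases could be aligned over 671 positions, of which 65.72% were identical. The longest run of identical bases was 12. It is given here in capitals, within 30 coding bases of each gene read 5′ to 3′ on the coding strand, because it is the longest stretch that the coding sequences share.
SHL1, chr4:18219949-18219978, minus strand: gggagatgcTGTGTTGATGCGgtcgtcgga
EBS, chr4:11729366-11729395, minus strand: gggagattgTGTGTTGATGCGcccatcaga

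None of the 1544 stretches of 50 bases in the *SHL1* transcripts, and none of the 1818 in *EBS*, occurred elsewhere in the genome sequence. Spliced transcripts of other genes were not searched. No annotated gene overlapped either locus. No stretch of that length was common to the coding sequences of *SHL1* and *EBS*.

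Recovered reads ranged from 23608279 to 46155689 per library, with 465 to 2148 reads for *SHL1* and 508 to 1073 for *EBS*. *NRT1.13*, the gene disrupted in the mutant, had less signal in the mutant throughout (7.07 to 10.2 CPM in the 12 wild-type plants and 2.19 to 4.65 CPM in the 12 mutant plants), in accordance with the labels. The summed level of 5 green shoot markers (*RBCS1A*, *CA1*, *GAPA*, *LHCB1.3* and *RCA*) was 39217 to 45584 CPM in the wild type and 38504 to 46999 CPM in *nrt1.13*. The summed level of 5 root markers was 92.9 to 254 CPM in the wild type and 82.0 to 299 CPM in *nrt1.13*. Most of it was *PYK10*, a beta-glucosidase (65.2 to 273 CPM), while *EXPA7*, *COBL9* and *CASP1* stayed below 0.8 CPM in all 24 libraries.

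*SHL1* was lower in *nrt1.13* than in Col-0 in each condition, which is the property it was chosen for. At 0.2 mM and 16 days the 3 wild-type plants had 44.7, 46.6 and 49.9 CPM, and the 3 *nrt1.13* plants had 27.8, 24.1 and 31.3 CPM. At 2 mM and 16 days the wild-type values were 47.3, 42.5 and 48.0 CPM and the mutant values 25.3, 23.2 and 26.6 CPM. The lowest wild-type plant was thus above the highest mutant plant on both nitrate supplies at 16 days, as the choice of *SHL1* implies (12.5% and 15.7% of all genes tested did not overlap between genotypes on 0.2 and 2 mM).

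At 25 days the same order held. On 0.2 mM the wild-type plants had 33.9, 36.9 and 38.2 CPM and the *nrt1.13* plants 17.7, 20.5 and 25.2 CPM. On 2 mM they had 41.3, 42.7 and 41.4 CPM against 23.1, 23.7 and 24.5 CPM. The genotypes were again separate on both supplies, where 7.54% and 15.6% of the genes did not overlap. Across all conditions the 12 wild-type plants (33.9 CPM or more) lay above the 12 mutant plants (31.3 CPM or less).

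The log2 differences between *nrt1.13* and Col-0 were −0.77 on 0.2 mM and −0.87 on 2 mM at 16 days, and −0.79 and −0.81 on the same supplies at 25 days, each with an SE of 0.10 from limma. These correspond to levels 1.70-, 1.83-, 1.73- and 1.76-fold lower in the mutant. Their mean was −0.81 ± 0.05 (SE, 24 libraries). Only the difference at 2 mM and 16 days was beyond the 1.8-fold limit used in the study. The difference on 0.2 mM at 25 days was −0.93 without plant 3 of *nrt1.13* of that condition, which had the highest level of its group, and −0.67 without plant 1, which had the lowest.

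Among all 15108 genes tested, 9 (0.0596%) were lower in *nrt1.13* without overlap of the plants in all 4 conditions, and 22 (0.146%) were higher. By the mean log2 difference *SHL1* was the third lowest, after *NRT1.13* itself (−1.18) and *UBC11* (−0.90), a ubiquitin-conjugating enzyme gene, and before *TLP2* (−0.73), a tubby-like protein gene. The next value was −0.53 (*FER1*, a ferritin gene), with an SE of 0.36 against 0.05 for *SHL1*. These ranks come from the contrast that chose *SHL1* and are a description.

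**Figure D1:**
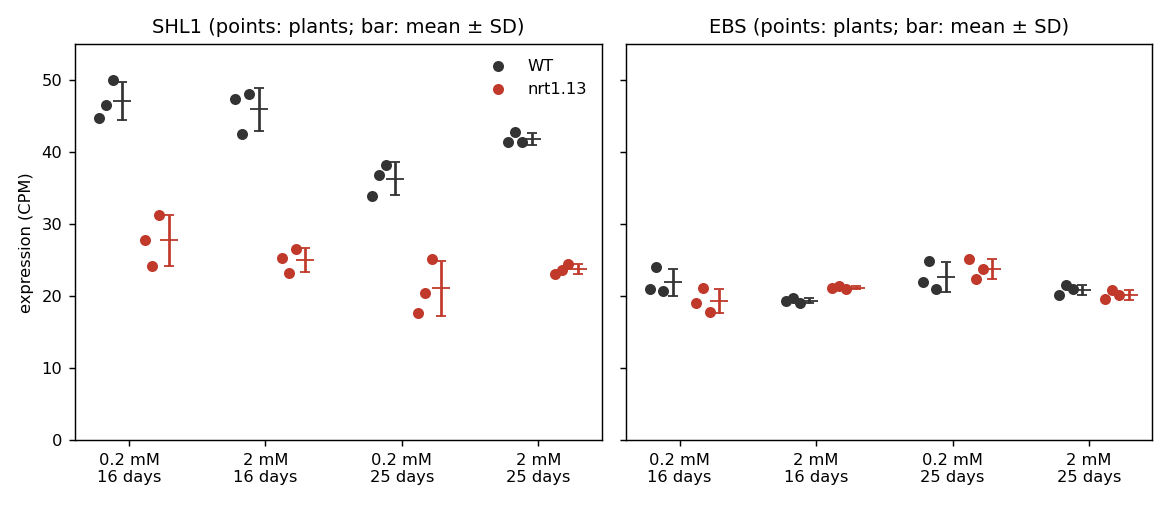
Expression of *SHL1* (left) and *EBS* (right) in CPM for each of the 24 plants, by nitrate supply and day, with Col-0 (WT) in dark grey and *nrt1.13* in red; bars show the mean and SD of 3 plants. The *SHL1* points of *nrt1.13* lie at 31.3 CPM or lower and those of the wild type at 33.9 CPM or higher, while the *EBS* points of all groups lie between 17.8 and 25.2 CPM.

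*EBS* showed no such separation. At 0.2 mM and 16 days it had 21.0, 24.1 and 20.8 CPM in the wild type and 19.1, 21.2 and 17.8 CPM in *nrt1.13*. At 2 mM and 16 days the values were 19.3, 19.7 and 19.1 CPM in the wild type and 21.1, 21.5 and 21.1 CPM in the mutant. The 3 mutant plants were above the 3 wild-type plants only in this last condition, where 15.7% of all genes tested did not overlap between genotypes.

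At 25 days on 0.2 mM, *EBS* was at 22.0, 24.9 and 21.1 CPM in the wild type and 25.2, 22.3 and 23.8 CPM in *nrt1.13*. On 2 mM it was at 20.2, 21.5 and 20.9 CPM and at 19.6, 20.8 and 20.1 CPM. The genotypes overlapped in both supplies at this day.

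The mean log2 difference of *EBS* between genotypes was −0.01 ± 0.04 (SE), with a 95% interval from −0.09 to 0.07 (adjusted *P* = 0.963 from limma; p = 0.867 by exact two-sided permutation within conditions, 5 of 12 mutant plants above the wild-type mean of their condition). On 0.2 and 2 mM it was −0.18 and 0.13 at 16 days and 0.07 and −0.05 at 25 days, and the adjusted *P* from limma ranged from 0.454 to 1. Within these single conditions 0.132%, 0.0728%, 0.258% and 0.086% of the genes passed in the same order. By comparison, 1.7% of the genes tested passed an adjusted *P* of 0.05 for the mean genotype difference, with 154 higher and 103 lower in *nrt1.13*.

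The group means of *SHL1* had the same order over the conditions in both genotypes. In the wild type the means at 16 days were 47.1 ± 2.65 CPM (SD, n = 3) on 0.2 mM and 45.9 ± 3.03 CPM on 2 mM, followed at 25 days by 41.8 ± 0.790 CPM on 2 mM and 36.3 ± 2.24 CPM on 0.2 mM. In *nrt1.13* they were 27.8 ± 3.58, 25.0 ± 1.71, 23.8 ± 0.663 and 21.1 ± 3.81 CPM in the same sequence. Of the neighbours in this order, the plants were separate only between both supplies at 25 days in the wild type and between the lowest wild-type and the highest mutant group. All other neighbouring groups overlapped.

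For *EBS* the highest mean was 23.8 ± 1.40 CPM (SD, n = 3), in *nrt1.13* on 0.2 mM at 25 days. The lowest were 19.4 ± 0.341 CPM in the wild type on 2 mM at 16 days and 19.4 ± 1.70 CPM in *nrt1.13* on 0.2 mM at 16 days. No neighbours in this order were separate. Per kilobase of exon sequence, *SHL1* averaged 21.7 CPM (11.4 to 32.3 over the libraries) and *EBS* 11.5 CPM (9.73 to 13.7).

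*SHL1* fell between 16 and 25 days, and within a nitrate supply the fall passed the test on 0.2 mM. The mean log2 difference over the 4 combinations of genotype and nitrate was −0.25 ± 0.05 (SE; 95% interval −0.35 to −0.15; adjusted *P* = 0.000107 from limma), a level 1.19-fold lower at 25 days. All 12 plants of 25 days were below the 16-day mean of their genotype and nitrate supply (two-sided exact permutation test, p = 0.000412, and 0.00144 after adjustment over 7 tests). The background was large: 62.0% of the genes tested passed for this contrast, with 3822 higher (25.3%) and 5538 lower (36.7%) at 25 days, a split of 4578 and 4484 after median-ratio scaling and of 4469 and 4657 with edgeR on recovered reads. The median of all genes was −0.04 (−0.001 after median-ratio scaling), and *SHL1* lay between −0.25 and −0.21 under these scalings.

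On 0.2 mM the log2 difference of *SHL1* between days was −0.37 in the wild type (adjusted *P* = 0.00211 from limma) and −0.40 in *nrt1.13* (adjusted *P* = 0.00126 from limma), where 54.3% and 50.7% of the genes passed. The wild-type plants of the 2 days did not overlap (44.7 to 49.9 CPM against 33.9 to 38.2 CPM), as for 58.3% of the genes, while plant 3 of *nrt1.13* at 25 days (25.2 CPM) was above the lowest mutant plant of 16 days (24.1 CPM). On 2 mM the differences were −0.13 (wild type, adjusted *P* = 0.46) and −0.07 (*nrt1.13*, adjusted *P* = 0.705), also from limma, and the days overlapped. On this supply 7.02% and 9.7% of the genes passed.

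The nitrate difference of *SHL1* changed between the days by −0.28 ± 0.10 on the log2 scale, averaged over genotypes (SE; adjusted *P* = 0.0184 from limma), and 47.1% of the genes tested passed for this interaction. The same contrast is the difference between the day differences on the 2 supplies. At 16 days the level on 0.2 mM minus that on 2 mM was 0.04 on the log2 scale in the wild type and 0.14 in *nrt1.13* (adjusted *P* = 0.86 and 0.408 from limma; 6.2% and 2.83% of the genes passed). At 25 days it was −0.20 in the wild type (adjusted *P* = 0.099), where the plants did not overlap, as for 52.8% of the genes, and −0.18 in *nrt1.13* (adjusted *P* = 0.134), with 39.0% and 40.0% of the genes past the test. Neither passed the threshold, and each passed without plant 3 of *nrt1.13* at 0.2 mM and 25 days (−0.20, adjusted *P* = 0.048, and −0.32, adjusted *P* = 0.00696, from limma). That plant is not part of the wild-type difference, whose value stayed the same. Only the spread shared by all groups and the adjustment over genes changed there. Without plant 1 of *nrt1.13* at 0.2 mM and 25 days the nitrate difference in *nrt1.13* was −0.065 (adjusted *P* = 0.636 from limma).

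Within a genotype the change between days was −0.24 in the wild type (adjusted *P* = 0.189, 33.2% of the genes passed) and −0.33 in *nrt1.13* (adjusted *P* = 0.0742, 29.1% passed), both from limma. Over both days and genotypes together the nitrate difference of *SHL1* was −0.05 (95% interval −0.15 to 0.05; adjusted *P* = 0.412 from limma; exact permutation test, p = 0.392, 7 of 12 plants below the 2 mM mean of their stratum). The nitrate and day differences of *SHL1* differed between the genotypes by 0.06 and 0.02, which are given without a test.

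**Figure D2:**
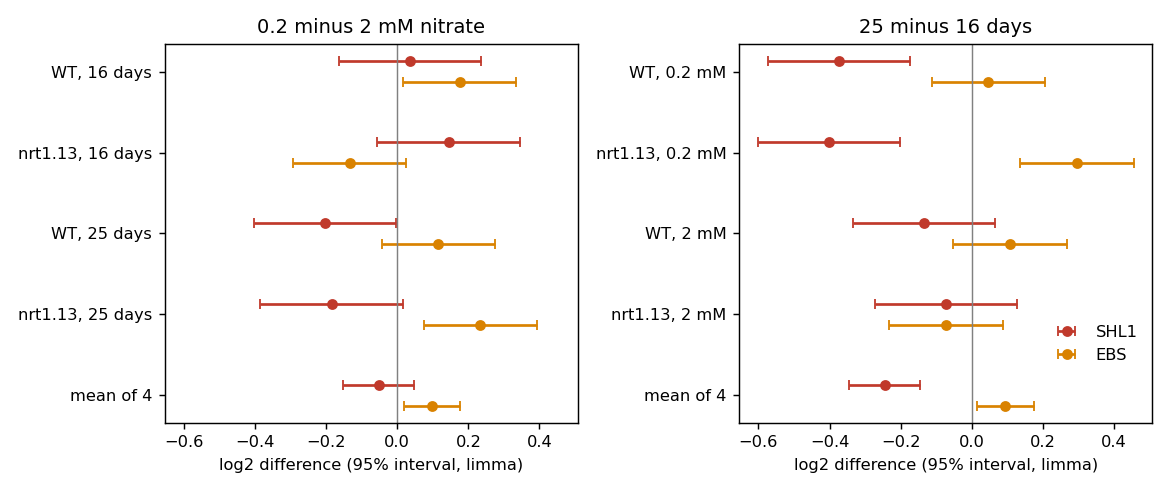
Log2 differences of *SHL1* (red) and *EBS* (orange) between nitrate supplies (left, 0.2 minus 2 mM) and between days (right, 25 minus 16 days), with 95% intervals from limma, in each stratum and as their mean. The day difference of *SHL1* was −0.37 and −0.40 on 0.2 mM and −0.13 and −0.07 on 2 mM, and that of *EBS* was 0.30 in *nrt1.13* on 0.2 mM.

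Between days *EBS* differed in the other direction. Its mean difference was 0.09 ± 0.04 on the log2 scale (SE; 95% interval 0.01 to 0.17; adjusted *P* = 0.0373 from limma), a level 1.07-fold higher at 25 days, with 8 of 12 plants above the 16-day mean of their stratum. For this contrast 62.0% of the genes tested passed, 25.3% with a higher level at 25 days. The two-sided exact permutation test gave p = 0.0457, and 0.08 after adjustment over 7 tests. The limma call was lost in 13 of the 24 fits that left out 1 library, where the value ranged from 0.077 to 0.094.

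The day difference of *EBS* was largest in *nrt1.13* on 0.2 mM, where the 25-day plants (22.3 to 25.2 CPM) were all above the 16-day plants (17.8 to 21.2 CPM). It was 0.30 there (adjusted *P* = 0.00255 from limma), where 50.7% of the genes passed. In the wild type on the same supply it was 0.05 (adjusted *P* = 0.633), where 54.3% passed. On 2 mM it was 0.11 in the wild type, with the days separate and 25 days higher, and −0.07 in *nrt1.13*, with the days separate and 25 days lower (adjusted *P* = 0.458 and 0.618 from limma). Separate days were found for 50.2% of the genes in *nrt1.13* on 0.2 mM, and on 2 mM for 30.8% in the wild type and 35.0% in *nrt1.13*.

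Whether these day differences of *EBS* differed between genotypes was tested after the values had been seen. The difference between genotypes was 0.25 on 0.2 mM (adjusted *P* = 0.957 from limma) and −0.18 on 2 mM (adjusted *P* = 1). Neither passed, and for these interactions 0.0463% and 0.0% of the genes did.

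Between nitrate supplies, *EBS* was 0.10 ± 0.04 higher on 0.2 mM on the log2 scale (SE; 95% interval 0.02 to 0.18; adjusted *P* = 0.0452 from limma), a 1.07-fold difference, and 41.7% of the genes tested passed for this contrast, 21.6% with a higher level on 0.2 mM. Of the 12 plants on 0.2 mM, 9 were above the 2 mM mean of their stratum, and the exact permutation test gave p = 0.045, or 0.08 after adjustment over 7 tests. In 15 of the 24 fits without 1 library the limma call was lost, with values from 0.080 to 0.10.

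By stratum, the nitrate difference of *EBS* was 0.23 in *nrt1.13* at 25 days (adjusted *P* = 0.0181 from limma), with the supplies separate (22.3 to 25.2 CPM on 0.2 mM, 19.6 to 20.8 CPM on 2 mM) as for 46.1% of the genes. For this stratum 40.0% of the genes passed the test. The call was lost without plant 1 of *nrt1.13* at 2 mM (0.21, adjusted *P* = 0.0648) or at 0.2 mM (0.19, adjusted *P* = 0.0817) of that day. In the wild type the difference was 0.18 at 16 days, again with separate plants, as for 26.3% of the genes (adjusted *P* = 0.168), and 0.12 at 25 days (adjusted *P* = 0.25). In *nrt1.13* at 16 days it was −0.13 (adjusted *P* = 0.329). The change of the nitrate difference from 16 to 25 days was thus 0.37 ± 0.11 in *nrt1.13* (SE; adjusted *P* = 0.0133 from limma; 29.1% of the genes passed). In the wild type it was −0.06 (adjusted *P* = 0.713; 33.2% passed). Averaged over genotypes the change was 0.15 ± 0.08 (SE; adjusted *P* = 0.107 from limma) and did not pass, while 47.1% of the genes did. Whether the change differed between the genotypes was not tested.

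The ratio of *SHL1* to *EBS* within a plant set these opposite directions side by side. In the wild type it averaged 2.37 ± 0.195 (SD, n = 3) on 2 mM and 2.16 ± 0.238 on 0.2 mM at 16 days, and 2.00 ± 0.0403 and 1.61 ± 0.180 at 25 days. In *nrt1.13* the corresponding means were 1.18 ± 0.0928 and 1.45 ± 0.308 at 16 days and 1.18 ± 0.0400 and 0.892 ± 0.179 at 25 days. *EBS* was above *SHL1* in CPM in 2 of the 3 *nrt1.13* plants on 0.2 mM at 25 days (ratios of 0.702 and 0.915, and 1.06 in the third plant).

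The log2 ratio was lower at 25 days by a mean difference of −0.34 (two-sided exact permutation test, p = 0.000375, and 0.00144 after adjustment over 7 tests; 10 of 12 plants below the 16-day mean of their stratum). For nitrate it was −0.15 (exact permutation test, p = 0.119, and 0.166 adjusted; 9 of 12 plants below). Without plant 3 of *nrt1.13* on 0.2 mM at 16 days, the highest ratio of its group, the nitrate value was −0.19 (exact p = 0.0284).

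**Figure D3:**
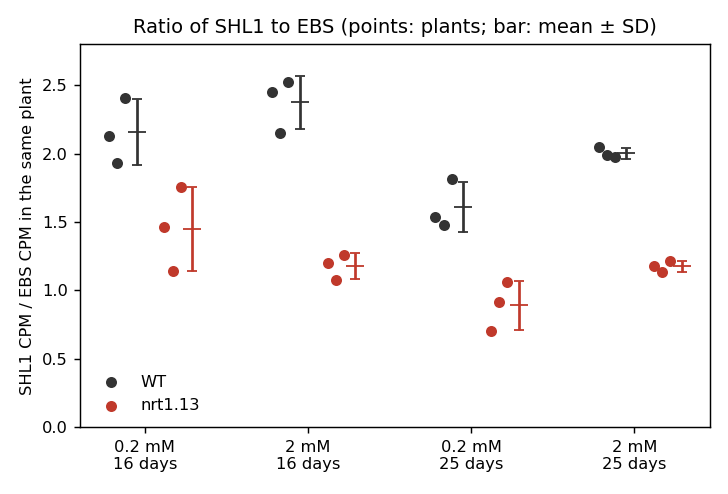
Ratio of *SHL1* CPM to *EBS* CPM in each plant, by nitrate supply and day, with Col-0 (WT) in dark grey and *nrt1.13* in red; bars show the mean and SD of 3 plants. The lowest group is *nrt1.13* on 0.2 mM at 25 days (0.892 ± 0.179) and the highest the wild type on 2 mM at 16 days (2.37 ± 0.195).

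Root marker levels also moved with day and nitrate. *PYK10* was lower at 25 days by a log2 difference of −0.95 and higher on 0.2 mM by 0.53, and *GL2*, an epidermal transcription factor gene also used in shoots, differed by −0.36 and −0.20. The other 3 root markers were too low to test. Of the green shoot markers, 3 of 5 were higher and 1 was lower at 25 days, against 25.3% and 36.7% of all genes tested. The part of these genes in the day and nitrate differences of *SHL1* and *EBS* was not tested. No green shoot or root marker passed the test for genotype, which 1.7% of all genes tested passed.

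The genes next to *SHL1* were compared because it was the member chosen for its genotype difference. Of the 10 nearest annotated genes, 4 were tested, with mean genotype differences of −0.03 (*VHA-A3*, a vacuolar proton pump subunit), −0.08 (*RD19*, a cysteine protease gene), −0.03 (*IMPL2*, a histidine synthesis gene) and 0.01 (AT4G39140). None passed an adjusted *P* of 0.05 in limma. *RD19* lies 12 bases downstream of *SHL1* on the same strand and averaged 441 CPM, against 33.6 CPM for *SHL1*.

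*RD19* was lower at 25 days by −0.43 (adjusted *P* = 8.27e-10 from limma), with 272 to 351 CPM on 0.2 mM at 25 days against 496 to 540 CPM at 16 days. The annotated *RD19* and *SHL1* genes do not overlap, so reads within them are separate by position. They share a strand, so counting by strand adds no separation. A contribution of *RD19* reads to the *SHL1* values was not tested. Around *EBS* the 4 tested genes of 10 had genotype differences between −0.09 (*SRF8*, a receptor-like kinase gene 12 bases away on the other strand) and 0.13 (AT4G22160), and none passed.

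**Figure D4:**
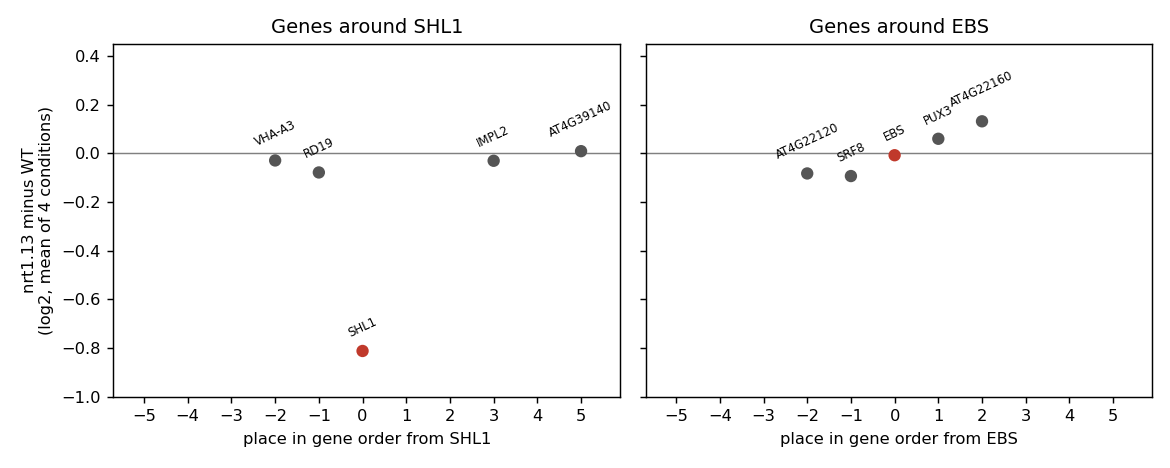
Mean log2 difference between *nrt1.13* and wild type for *SHL1* (left) and *EBS* (right), in red, and for the tested genes within 5 places on either side, in grey, against their place in the gene order. *SHL1* lies at −0.81, and its tested neighbours lie between −0.08 and 0.01.

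Genes with related roles were followed to show where the pair stands among them. The number called in each list was read against the share of all genes tested, which was 1.7% for genotype, 41.7% for nitrate (21.6% higher on 0.2 mM) and 62.0% for day (25.3% higher and 36.7% lower at 25 days). Of the partners of the EMF1 complex and other H3K27me3 readers, 15 of 16 were tested. *RING1B*, a RING finger subunit of Polycomb repressive complex 1, passed for genotype and was higher in *nrt1.13* (0.37, adjusted *P* = 0.0173 from limma). Its level was 2.02 to 5.89 CPM, near the limit of 2 CPM. In the single conditions 0 genes of this list were called for genotype, where 0.0728% to 0.258% of all genes were. *EMF1*, the partner of both readers, was not called for the mean difference (0.04, adjusted *P* = 0.653 from limma). The list median was 0.04 for genotype, against −0.003 for all genes tested.

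On 0.2 mM nitrate 7 of these 15 genes were higher and 0 were lower, against 41.7% of all genes called and 21.6% called higher. They included *RING1B* (0.32), *EMF1* (0.22, adjusted *P* = 3.51e-05 from limma), *LIF2* (0.17), which encodes a protein that binds the reader LHP1, and AT3G02890 (0.15). The list median was 0.12 and that of all genes 0.01. Between days 3 were higher and 4 lower, with *TRB2* (−0.29), a telomere repeat binding factor gene, and *VRN1* (−0.28), a vernalization gene, the most reduced. The 7 calls between days fell to 3 or 4 in 5 of the 24 fits without 1 library.

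Subunits of Polycomb repressive complex 2, which writes H3K27me3, and the VIN3 family had 0 genes called for genotype among the 8 tested of 11. On 0.2 mM 3 of the 8 were higher and 0 lower, against the same shares of all genes, among them *EMF2* (0.11) and *CLF* (0.09), a methyltransferase gene that lost the call in 7 of the 24 fits without 1 library. Between days 3 were higher, *VEL1* (0.34), *VRN5* (0.24) and *MSI1* (0.15), and 4 were lower, together 7 of 8 against 62.0% of all genes, and the number lower fell to 1 after median-ratio scaling. *VRN2* (−0.13) was among those that lost the call. The medians were −0.01 for genotype, 0.08 for nitrate and −0.07 for day.

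For H3K4 methylation, the mark read by the PHD finger, 13 of 14 writers and erasers were tested and 0 were called for genotype. The LSD1-like demethylase gene *FLD* (0.20, adjusted *P* = 0.000203 from limma) and *RBL* (0.12), a subunit of the methyltransferase complex, were higher on 0.2 mM. *RBL* lost this call in 10 of the 24 fits without 1 library, and 1 gene of the list was called in 7 of them. Between days 3 were higher, including *LDL1* and *ATXR7* (both 0.15), and 3 were lower, including *RBL* (−0.19), with 1 lower after median-ratio scaling. The medians were −0.01, 0.08 and 0.003 for genotype, nitrate and day.

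The 4 tested H3K27 demethylase genes of 5 held 0 genotype calls. *REF6* was higher on 0.2 mM (0.20) and lower at 25 days (−0.14), and *JMJ30* was lower at 25 days (−0.40, adjusted *P* = 8.99e-12 from limma). Of 3 histone deacetylase genes, *HDA6*, whose product is known to bind EBS, was not called in any of the mean contrasts, and *HDA9* (−0.10 between days) lost its call after median-ratio scaling, with edgeR and in 12 of the 24 fits without 1 library. The list medians for genotype, nitrate and day were 0.04, 0.04 and −0.08 for the demethylases and −0.05, −0.04 and −0.09 for the deacetylases.

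Among other genes for BAH proteins, 9 of 12 were tested and 0 were called for genotype, with differences from −0.098 to 0.072. *SHL1* was chosen for this contrast, so its place beyond this range is a description. *CMT3*, a DNA methyltransferase gene, was higher on 0.2 mM (0.18). Between days 3 of the 9 were higher and 4 lower, against 25.3% and 36.7% of all genes, including *ORC1B* (0.35), an origin recognition subunit gene with BAH and PHD domains like the readers, AT1G68580 (0.23), AT4G11560 (−0.19) and AT3G48060 (−0.17). The medians were −0.02, 0.06 and −0.08 for genotype, nitrate and day.

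**Figure D5:**
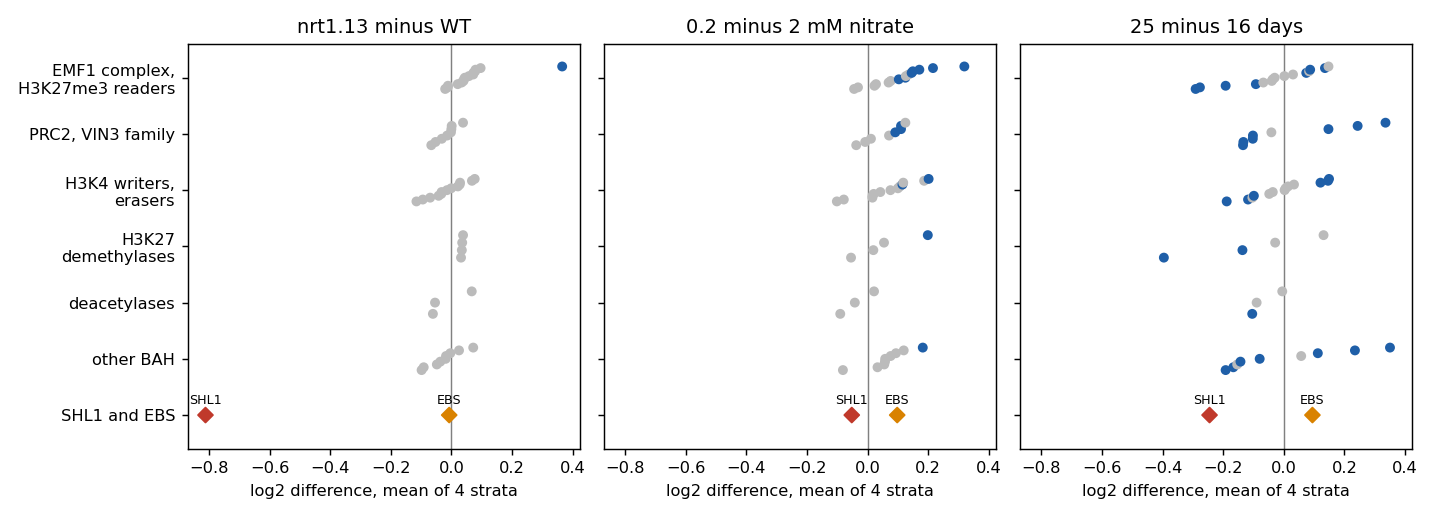
Mean log2 differences for genotype (left), nitrate supply (middle) and day (right) of the tested genes of 6 lists of chromatin genes (flowering and floral genes are not drawn), in blue where the adjusted *P* from limma was 0.05 or less and in grey otherwise, with *SHL1* (red diamond) and *EBS* (orange diamond) below. In the genotype panel the genes of these lists lie between −0.12 and 0.37, and *SHL1*, chosen for this difference, lies at −0.81.

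Flowering and floral genes linked to SHL1, EBS or EMF1 were mostly too low in these shoots to test (3 of 18 tested). *SOC1*, a floral integrator, was lower in *nrt1.13* (−0.26, adjusted *P* = 0.00735 from limma) and lower on 0.2 mM (−0.64, adjusted *P* = 2.64e-10). *FLC*, a floral repressor upstream of both *FT* and *SOC1*, was higher in *nrt1.13* (0.95, adjusted *P* = 1.64e-06). *STM*, a meristem gene, was higher at 25 days (0.24, adjusted *P* = 0.0199).

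*SOC1* and *SHL1* were thus both lower in the mutant, and *SHL1* was chosen for this. In no single condition did *SOC1* pass the test for genotype (adjusted *P* of 0.103 or higher from limma), which 0.0728% to 0.258% of all genes passed. On 0.2 mM at 16 days *SOC1* had 18.3, 16.4 and 16.2 CPM in the wild type and 11.8, 12.7 and 12.7 CPM in *nrt1.13*. The genotypes were separate there, as for 12.5% of all genes tested. On 2 mM at 16 days they were also separate, as for 15.7% of the genes, with 19.8 CPM or more against 19.7 CPM or less. At 25 days on 0.2 mM *SOC1* had 15.0, 13.6 and 12.2 CPM in the wild type and 10.2, 9.76 and 12.6 CPM in *nrt1.13*. On 2 mM at that day it had 24.9, 20.7 and 21.2 CPM and 19.1, 22.6 and 21.6 CPM. The genotypes overlapped on both supplies at 25 days.

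*FT*, the florigen gene and a target of EBS, was below 2 CPM in most libraries and was not tested. On 0.2 mM at 16 days its values were 3.48, 2.93 and 2.47 CPM in the wild type and 2.00, 1.06 and 1.12 CPM in *nrt1.13*. On 0.2 mM at 25 days they were 0.161, 0.310 and 0.787 CPM and 0.127, 0.0880 and 0.399 CPM. On 2 mM the *FT* means at 16 and 25 days were 2.89 and 1.85 CPM in the wild type and 1.505 and 1.03 CPM in *nrt1.13*. The lowest *FT* means were those on 0.2 mM at 25 days. *EBS* had its highest group means there, 22.7 ± 2.02 CPM in the wild type and 23.8 ± 1.40 CPM in *nrt1.13* (SD, n = 3). In the wild type on 0.2 mM the means at 16 days were 2.96 CPM for *FT* and 21.9 CPM for *EBS*, and the days overlapped for *EBS*. In *nrt1.13* on that supply and day the *FT* mean was 1.39 CPM and the *EBS* mean 19.4 CPM, both below the wild type. The mutant means of both genes were also below the wild type on 2 mM at 25 days. In the other conditions the mutant mean was below the wild type for *FT* and above it for *EBS*. The mean log2 genotype difference of *EBS* was −0.01. A relation between *FT* and *EBS* was not tested.

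Over the 24 libraries, the levels most like those of *SHL1* were those of *UBC11* (Pearson r = 0.94 of log2 values), *TLP2* (0.93), *NRT1.13* (0.83), AT4G36010 (0.78) and AT3G55430 (0.74). The libraries share genotype, nitrate and day groups, and *UBC11*, *TLP2* and *NRT1.13* are the other genes of lowest genotype difference. After removal of the 8 group means the values were 0.01 for *UBC11*, 0.43 for *TLP2*, −0.30 for *NRT1.13*, 0.08 for AT4G36010 and 0.42 for AT3G55430.

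For *EBS* the most similar genes were *MEE34* (0.80), AT1G33170 (0.79), AT3G09360 (0.79), AT1G60160 (0.78) and AT1G73970 (0.78), with 0.58 to 0.68 after removal of the group means. The homologues themselves gave −0.23 over the 24 libraries and −0.41 within groups. These values describe the libraries and carry no test.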

How the data were processed

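Poly(A) RNA of 24 *Arabidopsis* shoots (strand-marking library kit) was sequenced. The authors mapped reads to TAIR10 with CLC Genomics Workbench 10, keeping unique matches, after bcl2fastq 2.17.1.14 per the submitters' processing notes, and whether counting used strand is not given in the sources used here. The authors deposited a signal per gene named CPM. A library summed to 968394 to 1038371, so a further scaling factor is in these deposited CPM values, and the test used is that for normalized values. Each value was a whole multiple of 1 step per library (100.0% within 0.01 reads, largest deviation 0.00017), so reads were recovered for edgeR, and 2 CPM stood for 45.5 to 90.8 reads. Nothing else was used, and 0 columns were unmapped.

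Groups followed the labels. log2(CPM + 0.1), which understates changes of low genes, was fitted with limma 3.58.1 (R 4.3.3; 8 group means, variance trend) on genes with at least 2 CPM in all 24 libraries, and *P* was adjusted by Benjamini-Hochberg over 15108 genes. Single values were also tested by exact permutation within 4 strata (160000 arrangements, smallest p 1.25e-05; 7 tests). The labels do not say that plants came from separate cultures, so *P* covers the spread between these plants. Alternatives were a pseudocount of 1, median-ratio scaling, edgeR 4.0.16 on recovered reads, limma without trend, other filters, a replicate block and leaving out each library. Genotype interactions within single strata were added after the values were seen. Scripts were tested on simulated data. Gene models and sequences are from RefSeq TAIR10.1 (Python 3.11.15, Biopython 1.88), and no coordinate of the deposited table was used.

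The members and gene lists were chosen with earlier results of these data known. Genes named were the pair, *NRT1.13*, *FT*, *SOC1* and *FLC*, up to 4 genes per list with the largest called differences, the 5 genes most like each member, the markers and the neighbours within 5 places; *FER1*, *HDA6*, *EMF1* and *CLF* were named beside them after their values were seen. One root marker is not reported here.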

Additional observations from a re-analysis of the deposited data

Results flagged for a closer look

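The nitrate difference of *SHL1* changed between days by −0.28 on the log2 scale over both genotypes (adjusted *P* = 0.0184 from limma), and 47.1% of the genes tested passed for this contrast. The mean on 0.2 mM was higher than on 2 mM at 16 days and lower at 25 days in both genotypes, but none of the 4 nitrate differences within a genotype and day passed (adjusted *P* 0.099 to 0.86 from limma), and the plants overlapped in 3 of the 4. The nitrate difference of *EBS* changed between days by 0.37 in *nrt1.13* (adjusted *P* = 0.0133 from limma), where 29.1% of the genes passed. Averaged over genotypes this change was 0.15 (adjusted *P* = 0.107 from limma) and did not pass.

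The day difference of *EBS* had opposite signs without overlap of the plants. It was 0.11 in the wild type on 2 mM and 0.30 in *nrt1.13* on 0.2 mM, with 25 days higher, and −0.072 in *nrt1.13* on 2 mM, with 25 days lower. In the same order 30.8%, 50.2% and 35.0% of all genes tested had days that did not overlap. The test of the difference between genotypes on 2 mM gave −0.18 (adjusted *P* = 1 from limma).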

How the results depend on the processing

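No result changed its direction past the threshold under any alternative run. The *SHL1* day difference kept its call in all 24 fits that left out 1 library (−0.28 to −0.22) and under the 7 other settings (−0.25 to −0.21). The *EBS* calls were less stable: leaving out 1 library gave 0.080 to 0.11 for nitrate (adjusted *P* 0.0237 to 0.0973 from limma; call lost in 15 of 24) and 0.077 to 0.11 for day (adjusted *P* 0.0135 to 0.0859; lost in 13 of 24), while both calls held under the 7 other settings. The nitrate difference of the log2 ratio ranged from −0.19 to −0.11 (exact permutation p 0.0284 to 0.292). The number of genes called for genotype ranged from 181 to 683, and was 683 without plant 1 of *nrt1.13* at 0.2 mM and 25 days. The cause was not tested.

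Equal replicate numbers were not taken to pair the plants. Of 36 same-numbered pairs of libraries from groups that differ in 1 factor, 10 had deviations correlated above 0.1. The median was 0.04 and the highest 0.39, against a median of −0.003 for pairs with other numbers. These values cannot tell whether some plants of equal number shared a batch. With the replicate number as a block, 291, 6421 and 9458 genes were called for genotype, nitrate and day (257, 6303 and 9360 without it), the change of the *SHL1* nitrate difference between days in *nrt1.13* passed (−0.33, adjusted *P* = 0.0362 from limma, against 0.0742), and no other call of *SHL1* or *EBS* changed. Without a filter on low values 25547 genes were tested, and 8, 6 and 8 floral genes were called for genotype, nitrate and day, against 2, 1 and 1. With the filter only 3 of the 18 floral genes were tested, among 15108 genes in all. Over all genes 256, 6502 and 10643 were called without the filter, against 257, 6303 and 9360 with it. For nitrate, edgeR called 4 H3K4 genes, against 2 with limma. The design had 3 plants a group and a single mutant line, and the SE of the *EBS* mean differences was 0.04.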
